A study of Mus musculus with 4 samples.

Results

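Transcripts of 10 genes that mouse neutrophils are known for were followed through muscle injury in a mouse that forms ectopic bone. The genes were named by symbol, but with earlier results of these data known, so counts of them below are not those of an unselected set. S100a8, S100a9, Retnlg, Lcn2, Mmp8 and Mmp9 encode cytosolic, granule and secreted proteins, and Csf3r, Cxcr2, Il1r2 and Clec4d encode receptors. All 10 were among the 32285 features of the count tables, and all 10 passed the minimum of 10 unique molecular identifiers (UMIs, each counting 1 captured transcript) over the whole series. The samples were 4 fresh frozen sections of tibial muscle on spatial capture slides, 1 per day, from uninjured muscle (day 0) and from muscle 1, 3 and 7 days after injury with cardiotoxin, a snake venom toxin that kills myofibres. All 4 came from C57BL/6 mice of 6 to 8 weeks that carry Nse-Bmp4, a transgene in which the promoter of neuron-specific enolase drives Bmp4, so the uninjured section carried the transgene too and no section came from a mouse without it. The labels state that 3 muscles were mixed per group, and how these map onto a section was not settled. With 1 section per day there was no spread between animals, and no test between days was possible. A level below is UMIs per 1000000 UMIs of the section (CPM). Every interval is a 95% interval that covers counting error only.

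Neutrophils are short-lived cells made in the marrow under the growth factor G-CSF, which acts through the receptor encoded by Csf3r, and they are among the first leukocytes to enter injured muscle. They leave the blood along gradients of CXC chemokines read by CXCR2, and mature cells keep large amounts of S100A8 and S100A9 protein and of messenger RNA for both. Most of the other genes here are shared with further cells: Mmp9 is abundant in osteoclasts, Lcn2 in stressed epithelium, fat and stroma, and Clec4d, Csf3r and Il1r2 in monocytes and macrophages.

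The sections held 16777832 to 56113066 UMIs over 2107 to 3032 capture spots (10835 in all), and the day 1 section was the shallowest, with a median of 6322 UMIs per spot against 12119.5 to 21029 in the others. A spot is a small area that can hold several cells, so fewer cells of a type and less RNA per cell cannot be told apart in any value below. Any pair of sections shared 1539 to 2311 spot barcodes, which name positions on the slide.

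The 10 genes were set beside 16 further genes known for neutrophils. Ly6g, the surface protein by which mouse neutrophils are usually sorted, was at 0, 1, 0 and 0 UMIs in the sections of days 0, 1, 3 and 7, so the defining surface marker was close to absent at this depth. Cd177, another neutrophil surface protein, was at 0, 48, 178 and 2 UMIs in the same order. Padi4, the enzyme that citrullinates histones in neutrophils, was at 1, 29, 110 and 11 UMIs. Of the 16, 14 held enough UMIs to compare day 1 with day 0, and 10 of these were over 4-fold higher, against 6.68% of all features. Of 6 monocyte genes 4, and of 8 macrophage genes 3, were over 4-fold higher as well. The count therefore does not single out neutrophils, and the lists were chosen with earlier results of these data known. G0s2, Lrg1 and Wfdc21, which were among the 16 as well, were present in the uninjured section too (G0s2 at 1715, 599, 1016 and 1673 UMIs). The sum of the 16, where given below, is thus not to be read as a neutrophil level. Of 7 granule genes of marrow precursors, 5 were at 10 UMIs or fewer in every section: Elane at 2, 0, 0 and 1 UMIs, Ctsg at 0, 0, 3 and 0, Ngp at 1, 0, 0 and 0, Ltf at 1, 2, 3 and 0 and Mpo at 0, 1, 10 and 4. Prtn3, the serine protease proteinase 3, was higher at 9, 25, 126 and 40 UMIs, and Camp, the cathelicidin precursor, at 3, 1, 40 and 6. The 7 genes summed to 0.36, 1.73, 3.24 and 1.22 CPM.

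Taken over the section, the 10 genes summed to 364, 3716, 6800 and 1294 UMIs in the sections of days 0, 1, 3 and 7, or 8.30, 221, 121 and 30.9 CPM. Mmp9 made up 58.2% of this sum at day 0 and 38.4% at day 7, so the folds of the sum over day 0 depend largely on that gene's day 0 level. The sum without Mmp9 was not computed. The day 1 section was the highest and was 26.7-fold over day 0 (24.0 to 29.8). The day 3 section was 14.6-fold over day 0 (13.1 to 16.3) and the day 7 section 3.73-fold (3.32 to 4.20), which was 2.45-fold when the sections were scaled by the TMM factors of edgeR and 2.40-fold by the size factors of DESeq2. Without S100a8 and S100a9 the day 1 section was 14.3-fold over day 0, and the ratio of day 3 to day 1 was 0.864 in place of 0.547. At day 1, 9 of the 10 genes were over 4-fold higher than at day 0, against the same 6.68%, and 10 of 10 were over 2-fold higher, against 17.8%. At day 3, 9 of 10 were over 4-fold higher than at day 0, against 13.7% of features, and 9 over 2-fold higher, against 33.3%. At day 7 the 4-fold count was 2 of 10, against 11.2%, made of Csf3r and Clec4d, while 8 of 10 were over 2-fold higher, against 33.7%. That count was 4 of 10 (Retnlg, Csf3r, Clec4d and Lcn2) with TMM or DESeq2 factors, since S100a8 was then at 1.91 or 1.88, Mmp9 at 1.61 or 1.58, and Cxcr2 and Il1r2 each at 1.38 or 1.35. The 33.7% is the share on section totals, and the share of features over 2-fold was not counted with these factors. Cxcr2 rested on 4 against 2 UMIs. The median log2 ratio of the 10 genes to day 0 was 5.91, 4.62 and 1.42 in the sections of days 1, 3 and 7, beside medians of 0.16, 0.58 and 0.66 over all features tested. For the 6 monocyte genes these medians were 5.25, 5.14 and 2.22, and for the 8 macrophage genes 1.40, 3.72 and 2.08. From day 1 to day 3, Cxcr2 and Mmp9 were over 4-fold lower, which makes 2 of 10 against 0.979% of features. S100a8 and S100a9, at 3.76-fold and 3.78-fold lower, lay just under that limit, and the count was 4 of 10 with TMM or DESeq2 factors, with a total that left out mitochondrial, haemoglobin and adult myofibre genes, and as the mean over spots. The 0.979% is the share on section totals and does not belong to these other scalings. On section totals 4 of 10 were over 2-fold lower, against 4.57%. From day 3 to day 7, 6 of 10 were over 4-fold lower, against 3.38%, and 9 of 10 over 2-fold lower, against 12.1%. Markers of other myeloid cells differed between the same sections: the 8 macrophage genes summed to 414, 1472, 7553 and 2010 CPM and the 6 monocyte genes to 51.5, 355, 444 and 170 CPM. Their part in the levels of the 10 genes was not tested.

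**Figure D1:**
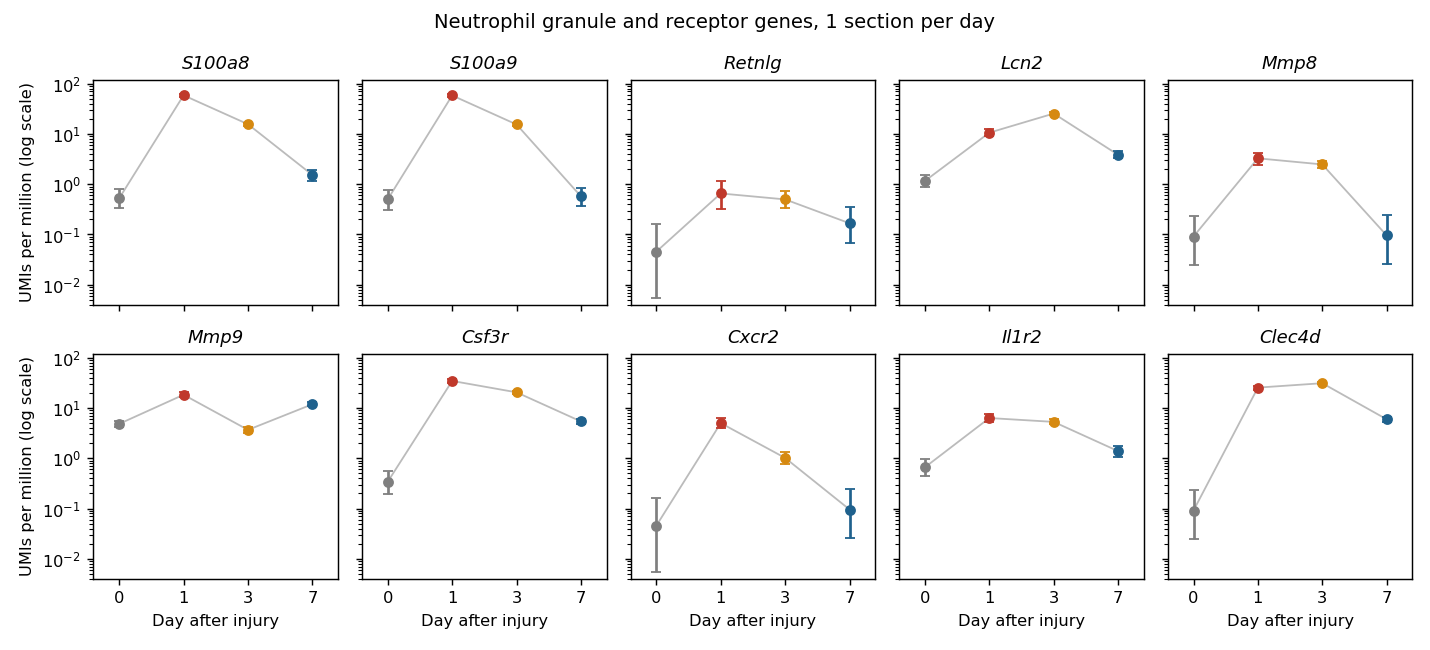
Level of each of the 10 genes (CPM, log scale) against the day after injury, with 1 section per day and bars giving the exact Poisson 95% interval. S100a8, S100a9 and Cxcr2 are highest at day 1, Lcn2 at day 3, Clec4d at day 3 on this scale but at day 1 with TMM or DESeq2 factors, and Mmp9 has a second high value at day 7.

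S100a8 and S100a9 encode the subunits of calprotectin, a calcium-binding and metal-binding complex that makes up a large part of the soluble protein of neutrophils and signals through the receptors encoded by Tlr4 and Ager. S100a8 had 23, 987, 877 and 64 UMIs in the sections of days 0, 1, 3 and 7, which is 0.52, 58.8, 15.6 and 1.53 CPM. S100a9 had 22, 980, 867 and 24 UMIs, which is 0.50, 58.4, 15.5 and 0.57 CPM. The day 1 section was the high one for both genes, and days 0 and 7 were low. S100a8 was 112-fold higher at day 1 than at day 0 (74.4 to 178) and S100a9 116-fold (76.5 to 187). From day 1 to day 3, S100a8 was 3.76-fold lower (3.43 to 4.13) and S100a9 3.78-fold lower (3.45 to 4.15). The genes separated at day 7, when S100a8 was 2.92-fold over day 0 (1.79 to 4.93) and the interval of S100a9, at 1.14-fold (0.61 to 2.14), included 1. Together the 2 genes made up 12.4%, 52.9%, 25.6% and 6.80% of the UMIs of the 10 genes, with the day 1 share the highest.

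The S100a8 and S100a9 genes are neighbours on chromosome 3 and lie on opposite strands with 22595 bases between them: S100a8 at chr3:90669071-90670034 on the plus strand and S100a9 at chr3:90692630-90695721 on the minus strand (GRCm38.p6). The 250 bases before their starts are shown because their levels ran together through day 3, and those of Lcn2 and Clec4d because their day 3 CPM was above that of day 1, which for Clec4d turned under other scalings. All are from RefSeq on GRCm38.p6, written 5′ to 3′ on the gene's strand, and capitals mark matches to the motif GAGGAA (written TTCCTC where it is on the other strand), bound by the myeloid factor PU.1, or to TTGCNNAA, a form of the motif bound by C/EBP factors. Both strands were searched, and the reverse complement of TTGCNNAA is TTNNGCAA.
S100a8 (chr3:90668821-90669070, plus strand): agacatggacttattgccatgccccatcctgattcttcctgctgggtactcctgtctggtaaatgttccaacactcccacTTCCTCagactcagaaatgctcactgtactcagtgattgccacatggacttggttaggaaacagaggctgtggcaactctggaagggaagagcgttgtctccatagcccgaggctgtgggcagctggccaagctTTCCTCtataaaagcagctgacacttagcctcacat
S100a9 (chr3:90695722-90695971, minus strand): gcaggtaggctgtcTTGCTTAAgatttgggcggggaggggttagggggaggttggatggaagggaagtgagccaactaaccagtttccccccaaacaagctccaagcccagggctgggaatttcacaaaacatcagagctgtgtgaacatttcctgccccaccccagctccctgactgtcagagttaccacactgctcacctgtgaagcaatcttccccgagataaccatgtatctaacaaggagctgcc
Lcn2 (chr2:32387740-32387989, minus strand): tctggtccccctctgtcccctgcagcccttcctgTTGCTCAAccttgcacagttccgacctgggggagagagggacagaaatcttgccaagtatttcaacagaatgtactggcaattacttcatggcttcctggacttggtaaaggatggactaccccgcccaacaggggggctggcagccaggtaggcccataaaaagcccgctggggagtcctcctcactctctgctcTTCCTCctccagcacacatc
Clec4d (chr6:123261857-123262106, plus strand): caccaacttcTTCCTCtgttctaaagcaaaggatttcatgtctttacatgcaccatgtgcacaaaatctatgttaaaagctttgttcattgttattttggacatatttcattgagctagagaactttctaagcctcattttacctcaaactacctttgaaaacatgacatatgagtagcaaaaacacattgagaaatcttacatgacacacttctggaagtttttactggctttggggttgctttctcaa
A promoter was held for 9 of the 10 genes. TTGCNNAA was in 4 of the 9 windows (S100a9, Retnlg, Mmp8 and Lcn2) and in 9.56% of 32851 promoters of the same length. GAGGAA was in 6 of the 9 (S100a8, Csf3r, Cxcr2, Mmp8, Clec4d and Lcn2) and in 23.3% of all promoters. S100a8 held it at 2 places, the nearer beginning 36 bases before the start, beside the letters tataaaa. S100a8 and S100a9 held different motifs in these windows, and Il1r2 held neither. The windows of Il1r2 (chr1:40085843-40086092) and Csf3r (chr4:126024409-126024658) lie inside the annotated spans of these genes and not before their first base.

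Among the granule and secreted proteins, Mmp8, Mmp9 and Lcn2 had 3 different orders of days. Mmp8 encodes the collagenase of neutrophil specific granules and had 4, 55, 139 and 4 UMIs, or 0.09, 3.28, 2.48 and 0.10 CPM. It was 36.0-fold higher at day 1 than at day 0 (13.3 to 137), days 1 and 3 did not differ beyond counting error (1.32-fold lower at day 3, 0.95 to 1.82), and day 7 was 25.9-fold below day 3 (9.89 to 96.4). Day 7 was back at the 4 UMIs of day 0. Retnlg, a resistin-like protein of neutrophils, had 2, 11, 28 and 7 UMIs. Its ratio of day 1 to day 0 was 14.4 with an interval of 3.14 to 134, and at these counts its days 1 and 3 could not be ordered (1.31-fold lower at day 3, 0.59 to 2.72).

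Mmp9 encodes gelatinase B, which neutrophils store in tertiary granules and which osteoclasts also secrete. It had 212, 308, 206 and 497 UMIs, or 4.83, 18.4, 3.67 and 11.9 CPM. It was high in the sections of days 1 and 7 and low in those of days 0 and 3. Day 1 was 3.80-fold over day 0 (3.18 to 4.55), day 3 was 5.00-fold below day 1 (4.18 to 6.00) and day 7 was 3.24-fold over day 3 (2.75 to 3.83), whereas the other 9 genes were all lower at day 7 than at day 3. Osteoclast markers differed between the same sections: Acp5, the acid phosphatase of osteoclasts, had 266, 132, 1724 and 1320 UMIs, Ctsk, their collagen-degrading cathepsin, 1098, 190, 1700 and 5551, and the 8 osteoclast genes summed to 58.4, 41.3, 96.0 and 213 CPM. Ctsk made up 62.4% of the day 7 sum and Nfatc1 43.9% of the day 0 sum. The paper lists Ctsk-expressing cells among the mesenchymal origins of ectopic bone, so the sum is not to be read as an osteoclast level. Dcstamp had 0, 1, 4 and 10 UMIs and Oscar 7, 1, 7 and 26. Of the 8 osteoclast genes, 6 were higher and 2 lower at day 7 than at day 3, with a median log2 ratio of 1.18 beside 0.09 over all features. The 2 lower were Ocstamp (1.00 to 0.60 CPM) and Atp6v0d2 (10.7 to 8.41 CPM). Acp5 was at 30.7 and 31.6 CPM at days 3 and 7, and Calcr was highest at day 0, at 1.16 CPM. Timp1, an inhibitor of the enzyme encoded by Mmp9, was at 5.04, 140, 318 and 94.2 CPM.

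Lcn2 encodes lipocalin-2, an iron-siderophore binding protein of specific granules that other cells secrete under inflammation. It had 51, 178, 1431 and 161 UMIs, or 1.16, 10.6, 25.5 and 3.85 CPM, with the day 3 section above the others. It was 9.13-fold over day 0 at day 1 (6.65 to 12.7) and 21.9-fold at day 3 (16.6 to 29.6), and day 3 was 2.40-fold over day 1 (2.06 to 2.82). Slc22a17, a receptor of lipocalin-2, was at 5.01, 1.49, 3.67 and 13.3 CPM, lowest at day 1 and highest at day 7.

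The 4 receptor genes were all over 4-fold higher at day 1 than at day 0, against 6.68% of all features, and differed in what followed. Cxcr2, the receptor of the CXC chemokines that draw neutrophils, had 2, 84, 57 and 4 UMIs, or 0.05, 5.01, 1.02 and 0.10 CPM. Its day 1 section was 110-fold over day 0, with an interval of 29.5 to 922, and its day 3 section 4.93-fold below day 1 (3.48 to 7.03). Csf3r, the G-CSF receptor, had 15, 580, 1150 and 226 UMIs, or 0.34, 34.6, 20.5 and 5.40 CPM, so that day 7 was still 15.8-fold over day 0 (9.38 to 28.7). Il1r2, the decoy receptor that binds interleukin-1 without signalling, had 29, 106, 297 and 58 UMIs, or 0.66, 6.32, 5.29 and 1.39 CPM. On section totals its days 1 and 3 did not differ beyond counting error (1.19-fold lower at day 3, 0.95 to 1.495). With TMM or DESeq2 factors the ratio lay outside that interval, with day 3 the lower. Clec4d, a C-type lectin receptor that signals with the Fc receptor gamma chain, had 4, 427, 1748 and 249 UMIs, or 0.09, 25.5, 31.2 and 5.95 CPM. It was 279-fold over day 0 at day 1 (108 to 1029), 342-fold at day 3 (133 to 1255) and 65.3-fold at day 7 (25.2 to 241). Day 3 was 1.22-fold over day 1 on this scale (1.10 to 1.36), and the direction turned under other scalings of the sections (0.952 with TMM and 0.945 with DESeq2 factors). From day 3 to day 7, Csf3r was 3.79-fold lower (3.29 to 4.39) and Clec4d 5.23-fold (4.58 to 6.00), against 26.9-fold for S100a9 (18.0 to 42.3), whose interval did not overlap theirs, and 10.6-fold for Cxcr2 (3.93 to 40.3), whose interval did.

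The ligands of these receptors were present in the same sections. Of 9 ligand genes, 8 held enough UMIs to compare day 1 with day 0, and all 8 were over 4-fold higher at day 1, against 6.68% of all features. Apart from Cxcl1, with 23 UMIs, these 8 had 0 to 4 UMIs each at day 0. The 9 genes summed to 0.77, 78.4, 69.1 and 6.69 CPM. Cxcl5 and Ppbp, ligands of CXCR2, were at 22.5 and 23.4 CPM at day 1, from 1 and 2 UMIs at day 0. Ppbp, which platelets and megakaryocytes also store, went on to 0.70 CPM at day 3 (39 UMIs), whereas Cxcl5 was at 26.0 CPM (1461 UMIs) and then at 0.50 CPM at day 7. Cxcl3 had 0, 69, 22 and 0 UMIs, and its day 1 level was at least 60.1-fold higher than that of day 0, with a section at 0 entered at 3 UMIs. The ligand of the G-CSF receptor, Csf3, was near the limit of detection with 2, 10, 9 and 1 UMIs. For the decoy receptor, Il1b had 1, 251, 1194 and 93 UMIs and Il1rn, which encodes the natural antagonist of the signalling receptor, 1, 84, 662 and 99. That signalling receptor, Il1r1, had another course from its decoy Il1r2: it was at 9.80, 8.76, 37.4 and 19.2 CPM, with no difference between days 0 and 1 beyond counting error (0.89-fold, 0.74 to 1.08), where Il1r2 was 9.56-fold higher (6.29 to 14.95). Of the 11 genes for partners and receptors of the proteins, 4 were over 4-fold higher at day 1, against the same 6.68%: Timp1, Clec4e, Clec4n and Fcer1g. Clec4e, a neighbour and partner of Clec4d, had 1, 100, 343 and 19 UMIs, and Fcer1g, the gamma chain itself, was at 21.4, 215, 586 and 95.6 CPM.

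**Figure D2:**
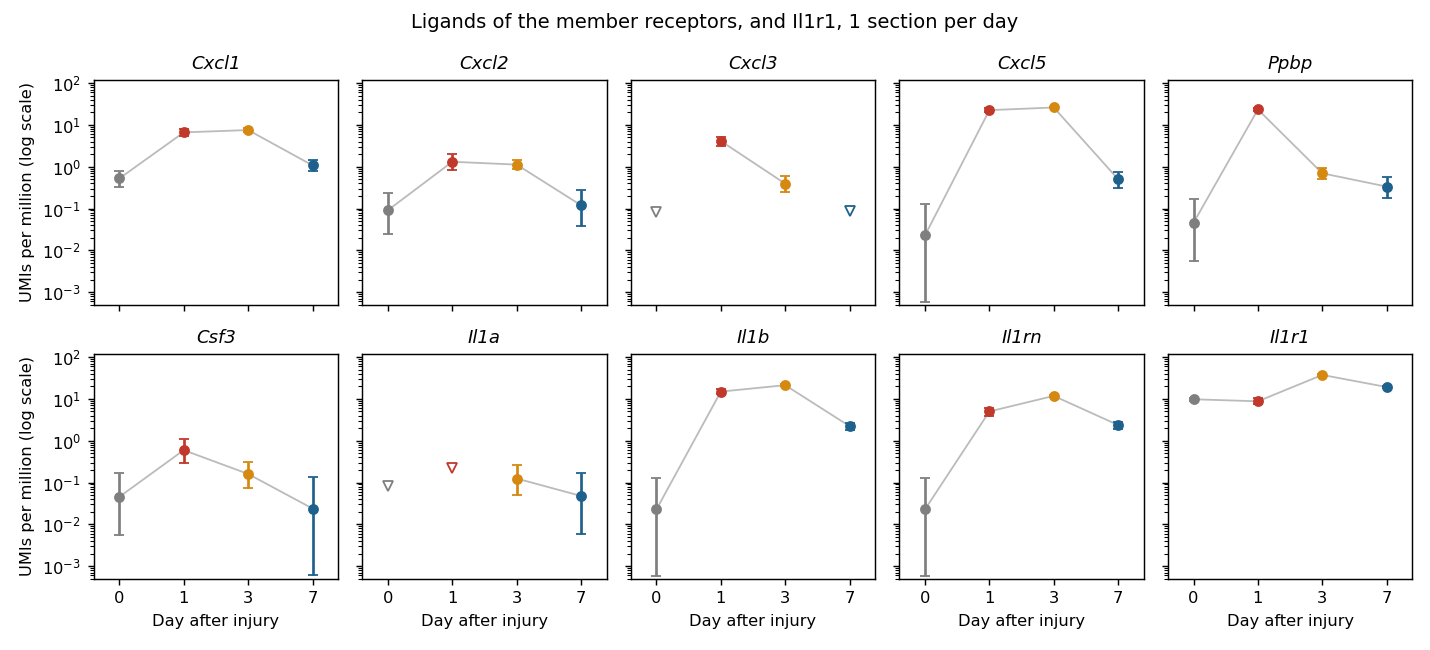
Level of 9 ligand genes of the receptors encoded by Cxcr2, Csf3r and Il1r2, and of Il1r1 (CPM, log scale) against the day after injury, with 1 section per day and exact Poisson 95% intervals. Open triangles mark the upper limit of the interval where a section held 0 UMIs, and Ppbp and Cxcl3 are highest at day 1 while Il1rn and Il1r1 are highest at day 3.

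The sections differed in depth, so the share of spots with a transcript was computed after thinning every spot to 2000 UMIs, which left out 17, 513, 9 and 84 shallower spots. At least 1 of the 10 genes was then in 1.73% of the spots of day 0 (1.21 to 2.38), 30.01% of those of day 1 (28.1 to 32.0), 19.4% of those of day 3 (18.0 to 20.9) and 5.08% of those of day 7 (4.32 to 5.94). Without thinning the shares were 13.1%, 54.3%, 68.9% and 24.2%, and the order of days 1 and 3 was the reverse. S100a8 or S100a9 was in 0.18%, 17.4%, 4.69% and 0.29% of the thinned spots, which sets day 1 apart from the rest. On the same scale Lcn2 was in 0.29%, 2.09%, 6.16% and 1.04%, highest at day 3, and Mmp9 in 0.96%, 3.90%, 0.68% and 1.75%. Cd68, a macrophage gene given for scale, was in 1.53%, 21.4%, 30.4% and 7.99% of spots. Ly6g was in 0.012% of the thinned spots at day 1.

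**Figure D3:**
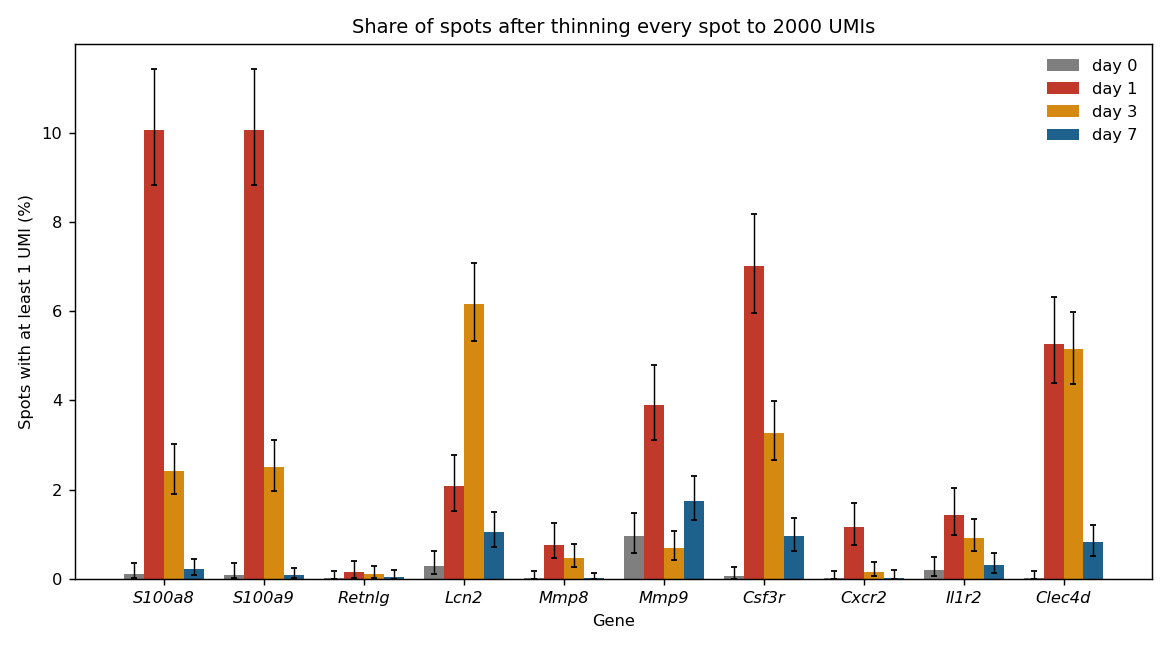
Percent of spots in which each gene had a UMI after thinning every spot to 2000 UMIs, by day, with exact Clopper-Pearson 95% intervals from the rounded expected count of spots. The day 1 bars of S100a8 and S100a9 stand at 10.1%, and the highest bar of Lcn2 is that of day 3 at 6.16%.

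At day 1, 10.5% of spots held 50% of the UMIs of the 10 genes, and at day 3 12.8%, where 50% of all UMIs took 28.1% and 27.8% of spots. A low count by itself puts UMIs into fewer spots, and no share at matched counts was computed. The contrast with all UMIs is therefore no measure of clustering. The macrophage gene Cd68 was gathered to a like degree, with 50% of its UMIs in 12.9% of spots at day 1 and 11.7% at day 3, and Lyz2, the lysozyme of myeloid cells, had 50% in 14.2% and 11.5%. The richest spots held many UMIs of several of the genes together: a day 1 spot of 2524 UMIs held 10 of S100a8, 17 of S100a9 and 8 of Csf3r, and a day 3 spot of 26184 UMIs held 16 of S100a8 and 23 of S100a9. In the uninjured section 1 spot of 27632 UMIs held 5 of the 23 UMIs of S100a8, 6 of the 22 of S100a9, 3 of the 15 of Csf3r and 1 of the 2 of Cxcr2. At day 7 another spot, of 18912 UMIs, held 7 of the 24 UMIs of S100a9 with 5 of S100a8. The low levels of S100a9 at days 0 and 7 were therefore not spread evenly over the tissue.

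To see which genes lay in the same spots, the tenth of spots with the highest S100a8 plus S100a9 share of their UMIs was set against the other spots of at least 2000 UMIs. These were 216 against 1938 spots at day 1 and 302 against 2718 at day 3, and days 0 and 7 had too few spots with either gene. The rich spots were shallower than the rest at day 1 (median 5231 against 7680 UMIs) and deeper at day 3 (18006 against 15891). The other 8 genes of the set summed to a 3.87-fold higher level in the rich spots at day 1 (3.45 to 4.34) and a 1.95-fold higher level at day 3 (1.81 to 2.09). At day 1 the ratio was 4.72 for Csf3r (3.87 to 5.74), 4.46 for Cxcr2 (2.60 to 7.43), 4.49 for Mmp9 (3.41 to 5.85), 3.79 for Il1r2 (2.28 to 6.09), 3.49 for Clec4d (2.72 to 4.44) and 1.81 for Lcn2 (1.12 to 2.79). At day 3 Cxcr2 was 7.46-fold higher in the rich spots (4.27 to 12.98) and Csf3r 2.17-fold (1.87 to 2.50), and Lcn2 was lower there, at 0.70 of its level in the other spots (0.57 to 0.85). Ligands of CXCR2 lay in the same spots too: Cxcl5 was 5.18-fold higher in the rich spots at day 1 (4.09 to 6.53) and 4.50-fold at day 3 (4.03 to 5.01), and Cxcl3 7.70-fold (4.20 to 13.8) and 12.0-fold (4.73 to 31.7). So were other myeloid genes to a smaller degree, with the monocyte list at 2.36-fold and the macrophage list at 2.02-fold at day 1, and at 1.74-fold and 1.46-fold at day 3. The list of 16 further neutrophil genes was at 2.40-fold at day 1 (2.15 to 2.68) and 1.22-fold at day 3 (1.14 to 1.32). Lrg1 made up 48.5% of the UMIs of this list in the day 1 section and 58.0% in that of day 3. Of that list, Cd177 was at 1.17-fold at day 1, from 4 UMIs in the rich spots and with an interval that included 1 (0.30 to 3.23), and at 2.17-fold at day 3 (1.47 to 3.14). The adult myofibre list was at 0.73 of its level elsewhere at day 1 and 0.50 at day 3. These spots share 1 section and its depth, so the ratios describe that section.

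**Figure D4:**
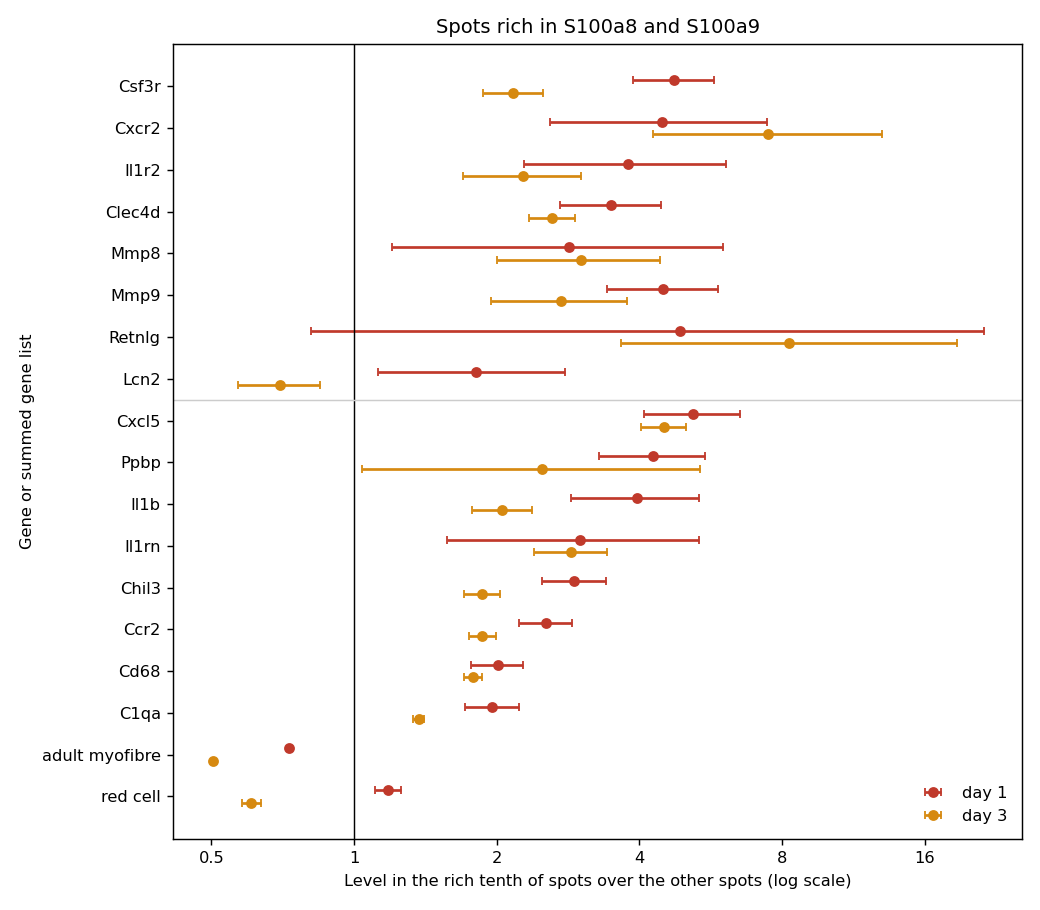
Level in the tenth of spots richest in S100a8 plus S100a9 over the level in the other spots (ratio, log scale) at day 1 and day 3, with exact 95% intervals for counting error. The upper block holds the other 8 genes of the set and the lower block ligands, monocyte and macrophage genes and the summed adult myofibre and red cell lists, and the day 3 point of Lcn2 lies below 1 while those of the other 7 lie above it.

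Counts of spots with both transcripts of a pair, as rounded expected counts after thinning, were compared with the product of the separate shares. At day 1 the count for S100a8 with S100a9 was 59 spots, where that product gives 21.9 (2.70-fold). The value was 2.31 for S100a8 with Csf3r, 2.80 for Csf3r with Cxcl5 and 1.51 for S100a8 with Cd68. At day 3 Clec4d with Cd68 had 81 spots against 47.3 (1.71-fold), and Lcn2 with Cd68 43 against 56.6 (0.75-fold).

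Spots of each section were then grouped by all other variable genes into 26 regions, each named by its leading genes. At day 1 the region led by Slfn4, Spp1 and Clec10a (376 spots) held the 10 genes summed at 636 CPM (601 to 673), 3.76-fold over the rest of the section (3.50 to 4.02), with S100a9 at 164 CPM, Csf3r at 118 and Cxcr2 at 16.6. That is 14.1% of the spots with 31.3% of the UMIs of S100a9. A region of shallow spots (363 spots, median 877 UMIs) led by Lars2, Gm42418 and Thbs1 was next at 552 CPM. At day 3 the region led by Spp1, Sfrp2 and Fabp5 (696 spots, 23.0% of the spots) held 61.5% of the UMIs of S100a8, 73.7% of Cxcr2, 73.4% of Mmp8 and 70.4% of Clec4d, the last at 71.6 CPM (67.7 to 75.7) against 13.3 in the rest. Lcn2 was not among them.

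**Figure D5:**
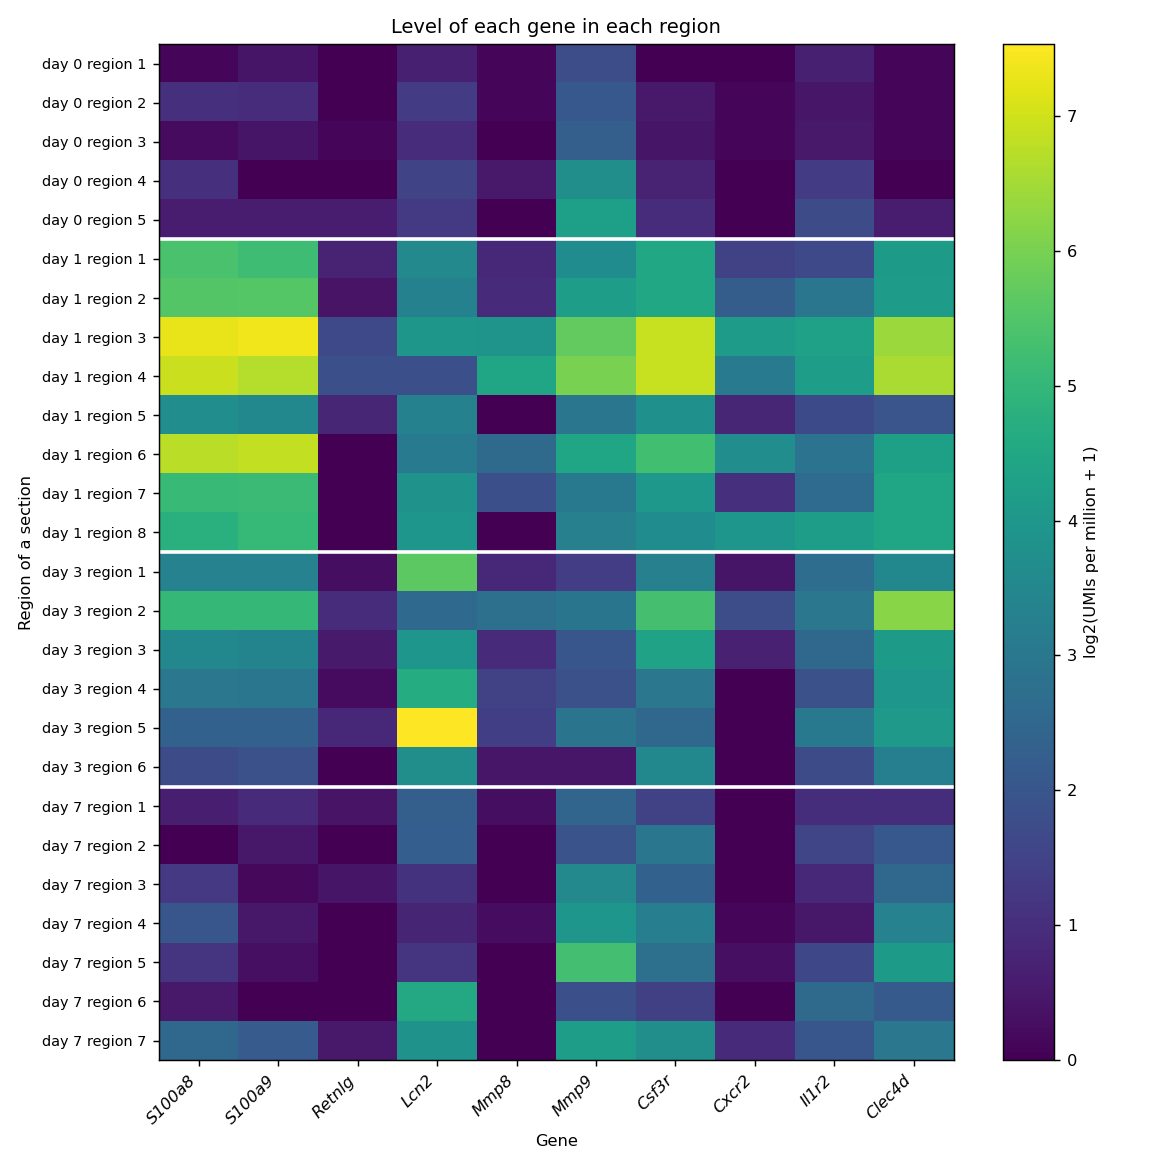
Level of each gene (colour, log2 of CPM + 1) in each of the 26 regions of the 4 sections, with rows numbered within a day and white lines between days; colours are to be compared within a column. Most columns are brightest in day 1 regions 3 (led by Slfn4) and 4 (led by Lars2) and day 3 region 2 (led by Spp1), whereas Lcn2 is brightest in day 3 region 5 (led by Cfd) and Mmp9 has a bright row in day 7 region 5 (led by Col9a3).

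Lcn2 at day 3 stood in other parts of the tissue. The region led by Cfd, Hp and Scd1, with Retn and Adipoq next (genes of fat cells), had 131 spots and the highest sum of the 10 genes at day 3, 229 CPM (203 to 257), most of it Lcn2 at 184 CPM (161 to 210), 8.39-fold over the rest of the section (7.25 to 9.68). S100a8 and S100a9 there had 5 UMIs each. The larger and less concentrated region led by Fbxl22, Cxcl14 and Mmp3 (1005 spots) held more of the UMIs of Lcn2 than the Cfd-led region. It had 48.1% of them at 48.9 CPM (45.3 to 52.7), while the Spp1-led region with most of Clec4d had Lcn2 at 5.00 CPM. In the twentieth of spots richest in Lcn2 (151 spots with 35.8% of its UMIs, median 9206 against 16636 UMIs), Cfd was 44.9-fold higher than in the other spots (42.9 to 46.9), Hp 45.3-fold (43.4 to 47.4) and Adipoq 36.2-fold (29.7 to 44.1). Csf3r was at 0.52 of its level elsewhere (0.30 to 0.83), Clec4d at 0.38 (0.23 to 0.59) and the macrophage list at 0.52 (0.51 to 0.54). The uninjured section had a region led by the same Cfd, Hp and Scd1 (113 spots), in which Lcn2 was at 1.43 CPM. At day 7 Lcn2 was highest in the region led by Mt2, Mt1 and Rrad (224 spots), at 22.5 CPM, with 32.9% of its UMIs.

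Spots rich in Mmp9 held more S100a8 and more Acp5 than other spots at both day 1 and day 7. They held more Csf3r at day 1 but not at day 7, and more Ctsk at day 7. At day 1, the twentieth of spots richest in Mmp9 (108 spots) had S100a8 at 3.86 times its level elsewhere (3.15 to 4.69), S100a9 at 4.08 (3.34 to 4.96), Csf3r at 4.32 (3.30 to 5.58) and Ctsk at 1.11 (0.44 to 2.33). At day 7 the like spots (148 spots with 69.4% of its UMIs, median 12505 against 12409.5 UMIs) had Acp5 at 6.24 (5.50 to 7.06), Ctsk at 2.91 (2.70 to 3.14) and Atp6v0d2, a proton pump subunit of osteoclasts, at 8.70 (6.90 to 10.9), with Csf3r at 0.92 (0.45 to 1.68). S100a8 was at 8.72 (4.91 to 15.02) in these day 7 spots too, from 64 UMIs in the section. Acp5 was also at 4.40 at day 1 (2.42 to 7.51), so this marker ran with Mmp9 at both days. The spot of day 7 richest in Mmp9 held 38 UMIs of it (7.65% of the section's) with 41 of Acp5, 72 of Ctsk and none of S100a8, S100a9 or Csf3r. The day 7 spot richest in S100a9, with 7 UMIs, held 5 of S100a8, 6 of Mmp9, 1 of Acp5 and 3 of Ctsk. Another day 7 spot with 5 UMIs of S100a8 held 7 of Mmp9, 51 of Acp5 and 122 of Ctsk. By region, Mmp9 at day 7 was highest where Col9a3, Col9a2 and Col11a1 led (289 spots; collagens of cartilage), at 37.5 CPM (31.9 to 43.8) or 4.18-fold over the rest (3.44 to 5.07), with 32.2% of its UMIs. Before injury it was highest in the Cfd-led region, at 18.1 CPM (12.8 to 24.9), and in the region led by Fmod, Col22a1 and Tnmd, at 12.1 CPM (9.15 to 15.7). Over spots of at least 2000 UMIs, Spearman's rho of Mmp9 with the macrophage list was 0.203, 0.164, 0.172 and 0.138 at days 0, 1, 3 and 7. With the osteoclast list it was 0.075, 0.050, 0.112 and 0.168. Whether osteoclasts, neutrophils, macrophages or other cells hold the Mmp9 transcripts of a spot was not tested.

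Over the 26 regions, the level of each gene was compared with that of the other 9 summed, as a description across regions that share sections and depth. Pearson's r was 0.89 for Clec4d, 0.87 for Csf3r and S100a8, 0.86 for Il1r2, 0.83 for S100a9, 0.77 for Mmp8 and 0.75 for Cxcr2, and it was 0.61 for Retnlg, 0.40 for Mmp9 and 0.33 for Lcn2. With the summed monocyte list, r was 0.88 for Clec4d, 0.85 for Csf3r, 0.81 for Il1r2, 0.72 for Mmp8, 0.69 for S100a8, 0.65 for S100a9, 0.59 for Retnlg, 0.57 for Cxcr2, 0.50 for Lcn2 and 0.44 for Mmp9, so it was above the r with the other 9 genes for Mmp9 and Lcn2. With the summed list of 16 further neutrophil genes, r ran from 0.09 for Mmp8 to 0.55 for Lcn2 and was 0.17 for S100a8. That sum was led by G0s2 at day 0 (51.3% of its UMIs) and by Lrg1 at days 1, 3 and 7 (48.5%, 58.0% and 54.0%). This r is therefore not a measure of likeness to neutrophil genes. Among 14707 further genes, the 10 with the highest r to the summed 10 were Hmox1 (r = 0.961), Pf4 (0.944), Slfn1 (0.942), Pira2 (0.940), Cstb (0.930), Zbp1 (0.929), Ccl9 (0.926), Dok2 (0.924), Ccr2 (0.924) and Ccl6 (0.923). Hmox1, the haem-degrading enzyme, was at 3.53, 79.2, 64.0 and 15.9 CPM in the sections of days 0, 1, 3 and 7. Ccr2, the chemokine receptor of inflammatory monocytes, was at 3.24, 108, 113 and 22.6 CPM, and Ccl6, a myeloid chemokine, at 33.0, 732, 466 and 81.5 CPM. None of these 10 was on the list of 16 further neutrophil genes, and Ccr2 was on the monocyte list.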

How the data were processed

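The authors deposited whole-number UMI counts for each feature and capture spot, not normalized, which 10x Genomics software had made from fresh frozen sections. The file headers name Space Ranger 1.2.0, the labels name Cell Ranger 5.0.0 for a protocol text shared with single cells, and the submitters' processing notes give the build mm10. Counts were used as deposited and summed over spots, with CPM computed on each section's total. CPM intervals were exact Poisson and ratio intervals exact conditional binomial, at 95%. A section at 0 UMIs was entered at 3 UMIs, and no fold was given where both sections held 3 or fewer. Features counted in a comparison had at least 10 UMIs over the 4 sections. No p-value was computed, since each day had 1 section. Thinning to 2000 UMIs was exact (hypergeometric).

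Regions were Leiden clusters per section on 2000 variable genes without the genes of the lists, mitochondrial and haemoglobin genes, with 30 components, 15 neighbours, resolution 0.5 and seed 1 (Scanpy 1.11.5, leidenalg 0.10.2), and regions under 20 spots were left out. Spots are small areas, so no doublet caller was run. Spot positions, images and single-cell data were not used here. The 10 genes and all 16 lists (119 gene symbols, all found) were chosen with earlier results of these data known. Named genes were the 10 genes, the genes of the lists, the leading genes of regions, and the 10 genes of at least 50 UMIs with the highest Pearson r of log2(CPM + 1) to the summed 10 over regions. The spots richest in Lcn2 or Mmp9, the richest single spots and the fat genes Cfd, Hp and Adipoq set against Lcn2 were chosen after their values were seen. Other settings used the factors of edgeR 4.0.16 (TMM) and DESeq2 1.42.0, another total, other thinning, other folds and another clustering resolution. Scripts were tested on simulated data. Promoter windows came from RefSeq tables on GRCm38.p6. Some genes of the lists and regions are not reported here.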

Additional observations from a re-analysis of the deposited data

How the results depend on the processing

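The sum of the 10 genes kept its direction in each comparison of days under all scalings run, and its size moved. Relative to the ratios on the section totals, TMM factors gave 23.4 for day 1 over day 0, 9.96 for day 3 over day 0, 2.45 for day 7 over day 0 and 0.426 for day 3 over day 1. DESeq2 size factors gave 23.4, 9.89, 2.40 and 0.422 in that order. Totals without mitochondrial, haemoglobin and adult myofibre genes gave 11.5, 3.17 and 0.475 for the last 3 of these and 0.276 for day 7 over day 3. The mean over spots of CPM within a spot gave 33.9, 12.8, 3.03, 0.378 and 0.236 for all 5 comparisons. Leaving out S100a8 and S100a9 gave 14.3 for day 1 over day 0, 12.4 for day 3 over day 0, 0.864 for day 3 over day 1 and 0.320 for day 7 over day 3, so most of the difference between days 1 and 3 came from these 2 genes. TMM factors took the median log2 ratio of all features for day 7 over day 0 from 0.66 to 0.06 and DESeq2 size factors to 0.03, and for day 3 over day 0 from 0.58 to 0.03 and 0.02. Clec4d turned direction for day 3 over day 1, from 1.22 to 0.952 with TMM, 0.945 with DESeq2 and 0.702 as the mean over spots. The cause was not tested. With 2-fold in place of 4-fold, 8 genes were higher at day 7 than at day 0 (4 if TMM or DESeq2 factors were used too, a setting chosen after seeing the data), and 4 were lower at day 3 than at day 1. The number over 4-fold lower at day 3 than at day 1, 2 on section totals, was 4 with TMM, DESeq2, the restricted total and the mean over spots. The shares of all features given with these counts above, 33.7% and 0.979%, are those of section totals. The share of spots with any of the 10 genes, for days 0, 1, 3 and 7, was 0.899%, 20.5%, 10.6% and 2.66% when thinned to 1000 UMIs, 3.37%, 41.6%, 33.05% and 9.28% when thinned to 4000, and 13.1%, 54.3%, 68.9% and 24.2% without thinning, where days 1 and 3 changed places. The ratio of the other 8 genes in spots rich in S100a8 and S100a9 was 4.41 at day 1 and 2.20 at day 3 for the top twentieth of spots, and 1.75 at day 3 with the restricted total. The ratio of the highest region to the rest was 3.17 at day 1 and 1.83 at day 7 with the restricted total, and 2.71 at day 3 and 3.24 at day 7 with a clustering resolution of 1. Of 250 alternative values of single genes between days, 35 moved by over 1.5 times, at most 2.54 times, and 11 turned direction. Those outside Clec4d were S100a9 and Mmp8 for day 7 over day 0, whose main values of 1.14 and 1.05 had intervals that included 1. They were at 0.751 and 0.688 with TMM, and below 1 also with DESeq2, the restricted total and the mean over spots. No paired analysis was possible because each day had 1 section. Depth limits Retnlg, Cxcr2, Mmp8 and Clec4d most, with 2 to 4 UMIs each at day 0, and no value here measures the spread between mice.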
